A study of Macaca fascicularis with 24 samples.

Results

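HOX genes encode homeodomain transcription factors that give cells along the body axis their regional identity, and here they were followed in the thoracic aorta of ageing cynomolgus macaques (Macaca fascicularis). The members were all probe sets, the groups of short probes that each read 1 transcript, whose single annotated symbol was HOXA, HOXB, HOXC or HOXD with a number. The rule gave 24 genes, read by 31 probe sets, out of 11963 genes with a probe set of their own name and 22215 probe sets that are not array controls. The HOXB cluster supplied 13 probe sets of 9 genes, HOXC 7 of 7 genes, HOXD 10 of 7 genes and HOXA 1, HOXA2. A further 3 probe sets with a HOX symbol also carried other symbols and were left out, and HOX genes beyond these 24 are not analysed here.

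Total RNA of the thoracic aorta was read on a single-colour human expression array in 4 groups of 6 arrays each: old males (mean age 20.0 years), young males (6.6 years), old females (21.2 years) and young females (7.2 years). The labels name no treatment or genotype and give no age for a single animal. In 3 pairs of arrays the values were so close that each pair was averaged and counted as 1 sample, which left 6 old male, 5 young male, 5 old female and 5 young female samples. The labels do not state that each replicate is another animal, so p-values measure the spread between these samples, which may be technical.

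HOX genes lie in 4 clusters, and their order along a cluster follows the order in which they are switched on from head to tail, so that genes of low paralogue number act in the hindbrain and pharyngeal arches and genes of high number in the trunk, tail and limbs. Adult fibroblasts and smooth muscle cells of human and mouse keep part of this pattern, which is why it is described as a positional memory. In the mouse, smooth muscle of the aortic arch comes largely from neural crest and that of the descending aorta from paraxial mesoderm, and these carry different HOX genes. Polycomb complexes hold silent HOX genes off, trithorax complexes keep active ones on, retinoic acid sets the pattern in the embryo, and TALE proteins (PBX, MEIS and PKNOX) bind DNA together with HOX proteins.

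Several samples stood apart over all tested probe sets. On 7 arrays, which make up 6 samples, the median correlation with the other arrays was 0.809 to 0.828, against 0.878 to 0.935 on the rest. RNA degradation shows as a rise of the actin control probes near the 3′ end over those near the 5′ end, and this log2 ratio was 0.78 to 1.73 on the divergent arrays and -0.25 to 1.15 on the rest. The ranges of this ratio overlapped. Probe sets for added control RNA (spike-ins) averaged 12.84 to 14.32 log2 units on the divergent arrays and 11.19 to 12.13 on the rest, without overlap. What set these arrays apart was not tested. The samples of these 7 arrays are called divergent here (old males 2 and 4, young male 1, old females 2 and 6, young female 3), and 15 samples remain without them. Young male 1 also read 10.3 log2 units for XIST, against at most 7.15 in the other young males and at least 11.5 in young females, and all young males read at least 12.0 for the Y-linked RPS4Y1, so this library did not match its label on XIST. Smooth muscle markers, of which 9 of 10 genes were bright enough to test, had a mean of 11.8 to 14.1 log2 units over all samples.

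Expression was counted as above background where the value of a probe set exceeded the 95th percentile, on the same sample, of 65 probe sets of 43 genes of other tissues (retina, islet, liver, brain and the like). That limit was 8.40 to 8.87 log2 units in divergent samples and 7.57 to 8.16 in the other 15. In paralogue groups 1 to 4, 6 of 8 probe sets rose above background in at least 1 sample, in groups 5 to 8 it was 8 of 11, and in groups 9 to 13 it was 1 of 12. Over all HOX probe sets that is 48.4%, against 63.0% of all 22215, and how well each human probe set matches the monkey transcript was not tested. The probes match human transcripts and the RNA is monkey RNA, so a probe set below background says nothing of its gene, and levels of different probe sets were not set against each other. In bulk tissue, fewer cells of a type and less RNA per cell cannot be told apart.

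The probe sets at background in each of the 21 samples were 16. They belonged to HOXB1, HOXB8, HOXB9, HOXB13, HOXC8, HOXC10, HOXC13, HOXD9, HOXD10, HOXD11, HOXD12 and HOXD13, with HOXD9 and HOXD13 read by 2 probe sets each, and to 1 of the 2 probe sets of HOXB6 and of HOXD1. HOXB13, HOXC13 and HOXD13 pattern the tail end of the trunk and the distal limb and urogenital tract, and HOXD9 to HOXD12 the limb and the lumbar and sacral trunk. HOXB1, which sits at the other end of its cluster and specifies a segment of the hindbrain, was at background too.

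**Figure D1:**
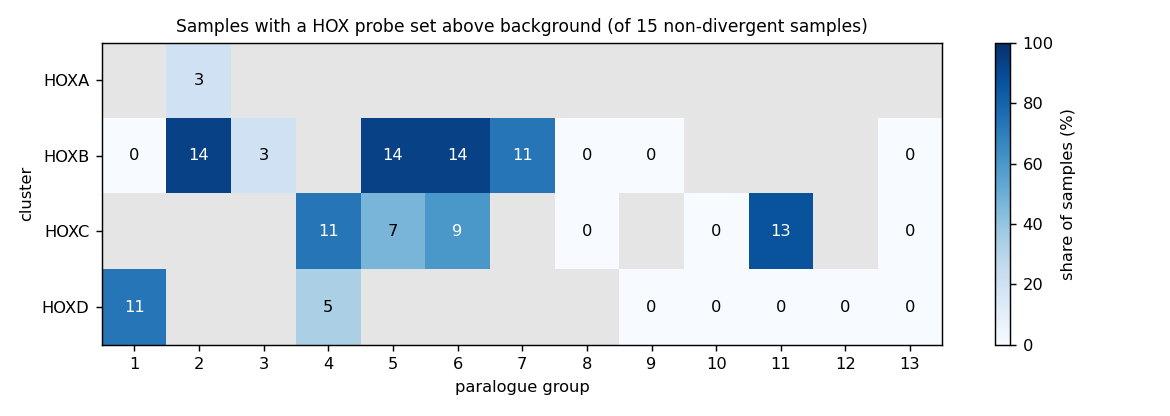
Number of the 15 non-divergent samples in which the best-read probe set of each HOX gene lay above background, by cluster (vertical) and paralogue group (horizontal); the colour gives the same as a share in percent, and grey cells have no member. Counts of 11 to 14 lie in groups 1, 2, 4, 5, 6 and 7 and at HOXC11, and the other cells right of group 7 hold 0.

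Over all 21 samples, 1 member, HOXB5, was above background in at least 90% of samples and 14 in 10 to 90% of them. Without the divergent samples, HOXB2, HOXB5 and HOXB6 reached 90%, each in 14 of 15 samples. Of the HOX probe sets, 3.23% reached 90% over 21 samples and 9.68% over 15, against 27.7% and 35.6% of all 22215. A filter on brightness, a mean at or above the median probe set, was passed by 12 HOX probe sets of 9 genes (HOXB2, HOXB5, HOXB6, HOXB7, HOXC4, HOXC6, HOXC11, HOXD1 and HOXD4), and these were tested for age. They are the brighter members and do not stand for all 31.

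HOXB2, a hindbrain gene of paralogue group 2, was above background in 17 of 21 samples. It read 7.63 to 9.28 log2 units in old males (median 9.14, n = 6), against 9.72, 9.13, 9.20, 9.19 and 7.31 in young males. In old females it read 9.33, 8.19, 9.21, 8.86 and 6.97, against 9.56, 9.38, 9.35, 9.10 and 8.94 in young females. Most samples lay within a narrow band near 9 while old male 2, young male 6 and old females 2 and 6 lay below it, so the age groups overlapped in both sexes.

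HOXD1, a group 1 gene known in the mouse from sensory neurons, was read by 1 of its 2 probe sets, above background in 13 of 21 samples. Its values were 7.96 to 8.94 in old males (median 8.51), against 9.51, 8.21, 8.46, 7.62 and 7.79 in young males. They were 8.54, 8.46, 8.75, 7.83 and 7.99 in old females and 8.34, 8.13, 8.12, 7.49 and 8.35 in young females. The highest value belonged to young male 1, a divergent sample.

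HOXD4 and HOXC4 belong to paralogue group 4, whose members are known for the boundary of hindbrain and neck. HOXD4 read 7.18 to 9.45 in old males (median 7.82), against 9.09, 7.13, 7.53, 7.36 and 8.03 in young males. In old females it read 7.0, 8.61, 8.02, 8.97 and 7.93, against 7.32, 8.01, 8.67, 7.02 and 8.53 in young females. It was above background in 4 of 6 divergent samples and in 5 of the 15 others.

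HOXC4 read 7.41 to 8.89 in old males (median 8.12), against 9.10, 8.13, 8.34, 8.27 and 8.70 in young males. Old females were at 7.86, 8.73, 7.68, 8.68 and 6.67, against 8.44, 8.34, 8.53, 8.30 and 8.95 in young females. The young samples of both sexes thus covered 8.13 to 9.10, and the old samples reached lower, down to 6.67, with their upper values inside the young range. HOXC4 was above background in 14 of 21 samples.

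The dimmer genes at this end of the clusters were seen in few samples. HOXA2, the selector gene of the second pharyngeal arch, exceeded background in 3 of 21 samples and ranged from 5.19 to 8.0. HOXB3, a hindbrain and arch gene that also acts in endothelial cells, exceeded it in 3 samples and ranged from 5.56 to 8.31. Neither passed the brightness filter.

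HOXB5, known in the mouse as an activator of the gene for the endothelial receptor KDR, was read by 2 probe sets. On the first, it was above background in 19 of 21 samples, with 8.12 to 8.97 in old males (median 8.28), against 9.80, 8.46, 7.99, 8.10 and 8.66 in young males. This probe set read 8.29, 9.07, 8.18, 8.87 and 8.50 in old females and 8.31, 8.68, 9.14, 8.49 and 8.64 in young females. The second was above background in 16 samples and ranged from 7.19 to 9.11. The identifiers of both, of all HOXB7 probe sets, of HOXB3 and HOXC6 and of the HOXB6 and HOXD1 probe sets that rose above background carry the maker's mark for probes that may bind more than 1 transcript, so their values may include related HOX genes. The other HOXB6 and HOXD1 probe sets lack this mark and were at background in all 21 samples.

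HOXB6, expressed in lateral mesoderm of the mouse trunk, was read by 1 of its 2 probe sets in 15 of 21 samples. It read 5.34 to 8.98 in old males (median 8.70), against 9.29, 8.16, 7.78, 8.17 and 8.68 in young males. In old females it read 8.20, 8.51, 8.37, 8.99 and 8.40, against 8.76, 7.92, 8.42, 8.01 and 8.87 in young females. Old male 2, a divergent sample, gave the lowest value, and the next old male was at 8.30. On the first of the 3 HOXB7 probe sets the same sample was also the lowest, at 5.54, while on the third it read 7.57, inside the range of the other old males.

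HOXC5, the group 5 gene of the HOXC cluster, exceeded background in 0 of the 6 divergent samples and in 7 of the 15 others. It ranged from 7.08 to 8.20 in old males (median 7.70), against 6.04, 5.78, 7.30, 8.20 and 8.34 in young males. Old females were at 7.08, 6.08, 8.14, 6.77 and 5.75, against 8.19, 7.53, 7.34, 7.99 and 8.31 in young females. It did not pass the brightness filter.

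HOXC11 was the only member of groups 9 to 13 above background, in 16 of 21 samples. In the mouse it is known from the hindlimb, kidney and caudal spine. Its values were 7.72 to 9.19 in old males (median 7.98), against 8.46, 8.14, 8.57, 8.38 and 8.01 in young males. In old females it read 8.48, 8.57, 8.05, 9.09 and 8.06, against 8.63, 8.72, 8.78, 8.64 and 7.93 in young females. HOXC10 and HOXC13, the other HOXC members of groups 9 to 13, stayed at background in all samples.

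HOXB7 and HOXC6, of neighbouring paralogue groups and different clusters, varied most between samples of the same group. HOXB7 is known as a trunk gene that also acts in mesenchymal and endothelial cells, and HOXC6 marks the thoracic region of the mouse embryo. On its second probe set, HOXB7 read 7.41 to 9.31 in old males (median 8.20), against 9.13, 7.73, 8.03, 7.17 and 8.71 in young males. Its values in old females were 7.16, 8.59, 7.94, 9.37 and 7.50, against 7.67, 7.53, 7.87, 7.75 and 9.45 in young females. The second HOXB7 probe set was above background in 7 of 21 samples, the third in 7 and the first in 13.

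HOXC6 spanned 7.06 to 10.83 in old males (median 8.26), against 10.89, 7.92, 8.75, 7.69 and 10.19 in young males. In old females it read 7.15, 8.03, 8.91, 9.18 and 8.18, against 7.47, 7.43, 8.33, 7.86 and 10.42 in young females. Within each of the 4 groups the lowest and the highest sample lay more than 2 log2 units apart, and the old and young groups overlapped in both sexes. HOXC6 was above background in 11 of 21 samples.

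**Figure D2:**
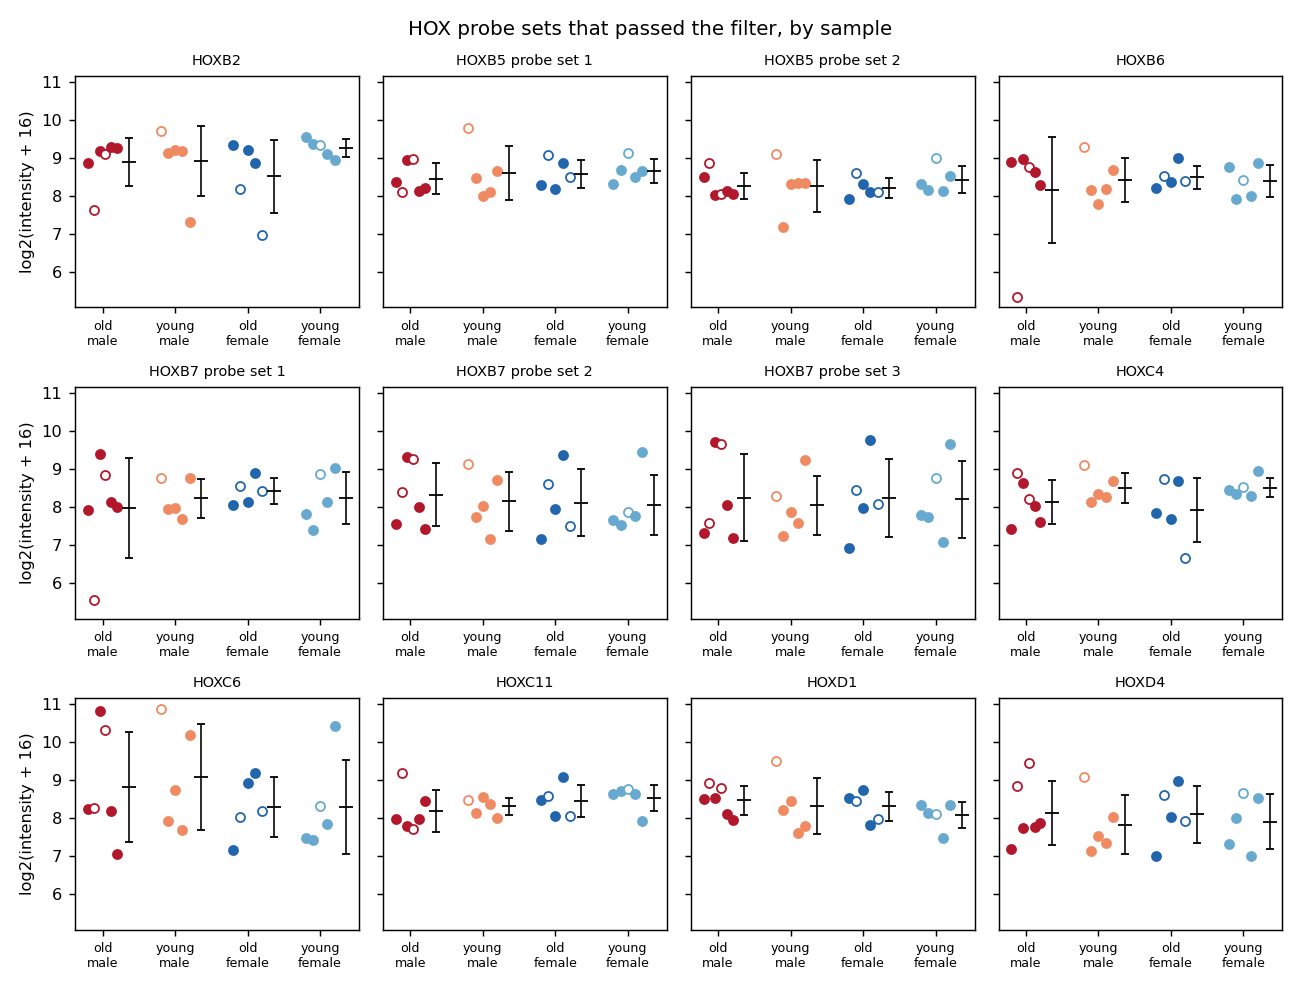
Values of the 12 HOX probe sets that passed the brightness filter, as log2(intensity + 16), with 1 point per sample (open points are divergent samples) and, beside each group, its mean ± SD (old male n = 6, the others n = 5). Old and young groups overlap in every panel, and HOXC6 runs from 7.06 to 10.89.

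Stability across samples was measured as the residual SD around the group means. Its median was 0.762 for the 12 HOX probe sets and 0.460 for all 11108 tested, and 10 of the 12 lay above the latter value. Over the 15 non-divergent samples the medians were 0.472 and 0.313, with 11 of the 12 above. HOX probe sets therefore lay among the more variable of those tested, as a description with no test. The mean brightness of the 12 lay at the 57.0th to 73.0th percentile of all probe sets, while those tested include far brighter ones. The comparison was not matched on brightness, and the part of brightness in this spread was not tested.

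HOXC6 had the largest SD, 1.26 over 21 samples and 1.35 over 15, above that of 98.4% and 99.5% of all tested probe sets. HOXB7 followed with 1.01 and 1.14 on the third of its probe sets and 0.820 and 0.876 on the second. HOXB6 had an SD of 0.849 over 21 samples and 0.404 over 15, since its spread came largely from old male 2. The first HOXB7 probe set went likewise, with 0.846 and 0.601.

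The smallest SDs belonged to HOXC11 (0.417), to the second (0.437) and the first (0.476) probe set of HOXB5, to HOXD1 (0.487) and to HOXC4 (0.563). HOXC11 was less variable than the median tested probe set over 21 samples, at the 40.9th percentile, and more variable over 15, at the 60.5th. HOXB2 and HOXD4 lay between, at 0.745 and 0.778 over 21 samples.

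**Figure D3:**
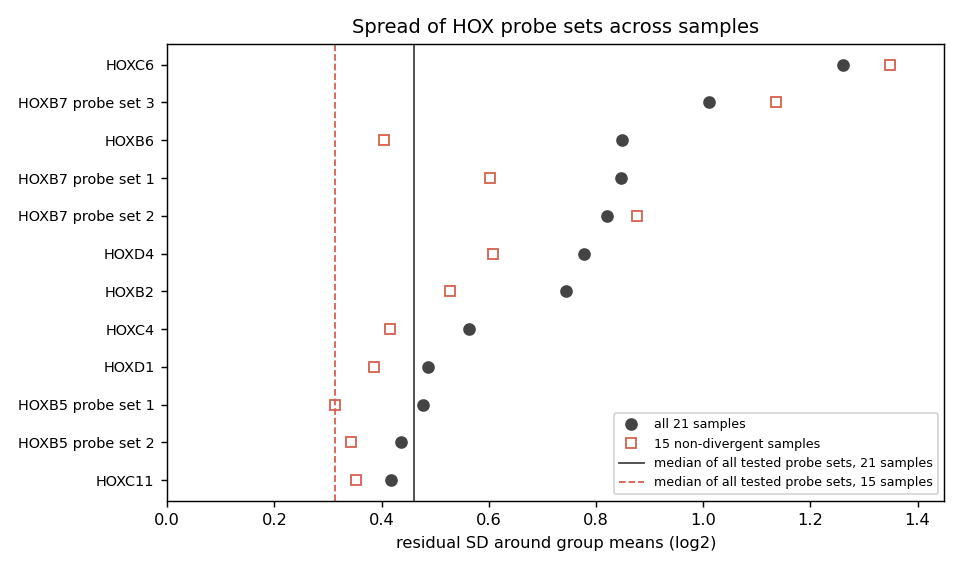
Residual SD around the group means, in log2 units, of each tested HOX probe set over all 21 samples (filled circles) and over the 15 non-divergent samples (open squares); the lines mark the medians of all 11108 tested probe sets, 0.460 (solid) and 0.313 (dashed). HOXC6 and the third HOXB7 probe set lie above 1 in both sets, and HOXB6 moves from 0.849 to 0.404.

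High HOXB7 and high HOXC6 fell in the same samples. The HOXC6 probe set and all HOXB7 probe sets carry the mark for probes that may bind several transcripts. Whether they read some of the same transcripts was not tested. Among the 15 non-divergent samples, HOXB7 on its second probe set was 7.16 to 8.03 in 11 samples and 8.71 to 9.45 in 4, with a gap of 0.69 between. Those 4 were old male 3, young male 6, old female 5 and young female 6, which is 1 of each group. Their HOXC6 values were 10.83, 10.19, 9.18 and 10.42, and the other 11 samples lay between 7.06 and 8.91.

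The other probe sets of HOXB7 separated the same samples, with 8.78 to 9.41 on the first in these 4 and 7.41 to 8.14 in the 11, and 9.24 to 9.77 on the third in the 4 and 6.92 to 8.05 in the 11. HOXC4 did too, with 8.65 to 8.95 in the 4 and 7.41 to 8.44 in the 11. HOXB2 did not follow, with 7.31 to 9.19 in the 4 and 8.88 to 9.56 in the 11. Ranges of the 4 and the 11 also overlapped for both HOXB5 probe sets, HOXB6, HOXC11, HOXD1 and HOXD4. The share of all tested probe sets that separate these samples is not given here. Because the samples were sorted by HOXB7 itself, these ranges are a description and carry no test.

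With the samples in separate clusters, correlations were computed within the 11 lower samples, a choice made after the values were seen. The second and the third HOXB7 probe set each exceeded background in 5 of the 15 non-divergent samples, among them the 4 with high HOXB7. Within the 11 samples their values therefore lay mostly at background. The second HOXB7 probe set and HOXC6 gave Pearson's r = 0.765 (permutation p = 0.00684, 2-sided) and Spearman's rho = 0.782 (permutation p = 0.00664), and r was 0.819 without the 2 samples farthest from the HOXB7 median. This was the smallest p of 66 pairs of tested HOX probe sets, none of which passed adjustment over the pairs (adjusted permutation p = 0.451). For the third HOXB7 probe set and HOXC6 r was 0.569 (permutation p = 0.0708) and rho 0.591 (0.0612), and for the first and HOXC6 r was 0.341 (permutation p = 0.312) and rho 0.273 (0.418). In the 6 divergent samples, the second probe set and HOXC6 gave r = 0.788 (exact permutation p = 0.122).

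Probe sets of the same gene did not always follow each other within the 11 samples. For HOXB7, the second and the third gave r = 0.605 (permutation p = 0.0519) and rho = 0.636 (0.0405), and the first gave r = 0.392 with the second and -0.17 with the third. The pair of HOXB5 probe sets gave r = -0.33 (permutation p = 0.326) and rho = -0.23 (0.505). Over pairs of the same cluster the median r was -0.02 (21 pairs), and over pairs of different clusters 0.09 (41 pairs).

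Markers of neural crest and arch tissue were read in the same samples. Of 9 such genes, 5 were bright enough to test (HAND1, PRRX1, SOX10, TFAP2A and TWIST1), and their mean was 7.94 to 8.43 in the 4 samples with high HOXB7 and 8.44 to 8.95 in the 11 others. These ranges nearly touch, and with samples sorted by HOXB7 they carry no test. Within the 11 samples their mean and the second HOXB7 probe set gave r = -0.04 (permutation p = 0.913) and rho = 0.04 (0.925). The divergent samples ran from 7.89 to 8.97. MSX1, MSX2 and HAND2 were dim, as were the other probe sets of SOX10 (mean 6.12) and TFAP2A (6.54 and 5.99). Those used for SOX10, TFAP2A and HAND1 had means of 8.20, 8.20 and 8.39. These lie near the background limits, 7.57 to 8.16 in non-divergent and 8.40 to 8.87 in divergent samples. The part of these markers in the HOXB7 values was not tested.

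For other tissues the ranges overlapped. The adipocyte marker mean was 7.29 to 10.58 in the 4 samples and 7.61 to 11.31 in the 11, and the smooth muscle mean was 12.92 to 13.58 and 13.01 to 14.10. Within the 11 samples, HOXD4 gave r = -0.81 with the smooth muscle mean (permutation p = 0.00185; rho = -0.79, permutation p = 0.00573), and -0.65 without the 2 samples farthest from the HOXD4 median. In the 6 divergent samples the sign was opposite, with r = 0.845 (exact permutation p = 0.0236). With the endothelial mean HOXD4 gave r = 0.803 (permutation p = 0.00336; rho = 0.845, permutation p = 0.00188). HOXD4 exceeded background in only 5 of the 15 non-divergent samples. Within the 11 samples its values therefore lay mostly at background, and whether these relations reflect HOXD4 transcript was not tested. None of the 72 relations of HOX probe sets with 6 marker lists passed adjustment, with a smallest adjusted permutation p of 0.121.

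**Figure D4:**
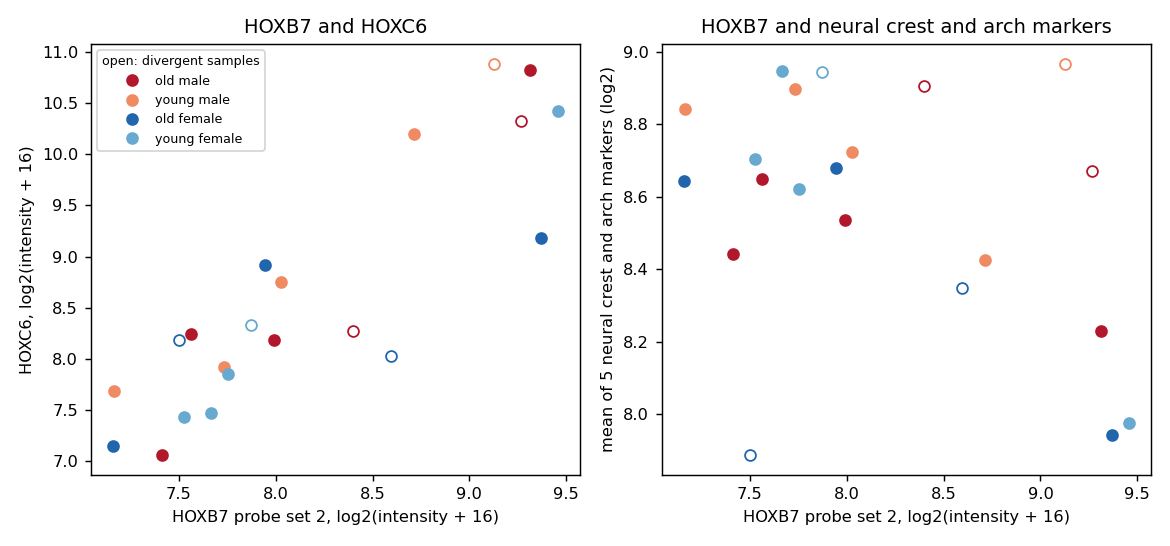
Each point is 1 sample, with the second HOXB7 probe set on the horizontal axis and HOXC6 (left) or the mean of 5 neural crest and arch markers (right) on the vertical axis, all in log2 units; open points are divergent samples. In the left panel 4 filled points, 1 of each group, lie at HOXB7 of 8.71 to 9.45 and HOXC6 of 9.18 to 10.83, apart from the other 11.

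The design asks how old and young aortas differ in each sex. In males, 0 of the 12 HOX probe sets passed limma's test with Benjamini-Hochberg adjustment over all probe sets at a threshold of 0.05, where 0.018% of all 11108 passed (2 probe sets). At an unadjusted p under 0.05 the HOX count was again 0, against 3.36% of all tested. Old and young males did not separate on any HOX probe set, and the share of tested probe sets on which they did was 0.666%.

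The smallest HOX p in males was that of HOXC4, which averaged 8.13 ± 0.57 (SD, n = 6) in old and 8.51 ± 0.39 (n = 5) in young males, a log2 change of -0.37 ± 0.33 (SE; limma unadjusted p = 0.271, adjusted p = 1). The HOXC4 change lay between -0.52 and -0.23 when any 1 sample was left out. HOXD4 had the largest positive change, 0.31 ± 0.44, and HOXD1 had 0.15 ± 0.29. HOXB6 had -0.26 ± 0.48 and the first HOXB7 probe set -0.25 ± 0.48, and both turned positive without old male 2 (0.30 and 0.23). HOXB2 had -0.02 ± 0.42, which became 0.23 without old male 2 and -0.42 without young male 6.

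In females, 0 of the 12 passed, as did 0% of all probe sets tested by limma with adjusted p. None had an unadjusted p under 0.05, against 2.84% of all tested, and none had groups that did not overlap, against 0.342%. HOXB2 averaged 8.51 ± 0.97 in the 5 old females and 9.26 ± 0.25 in the 5 young females (SD), a log2 change of -0.75 ± 0.44 (SE; limma unadjusted p = 0.101, adjusted p = 1). Without old female 6 the change was -0.37, and without all divergent samples -0.11. HOXC4 averaged 7.92 ± 0.85 in old and 8.51 ± 0.26 in young females, with a log2 change of -0.59 ± 0.35 (SE) that was -0.28 without old female 6 and -0.44 without all divergent samples. The second HOXB5 probe set had -0.22 ± 0.28, HOXD1 0.23 ± 0.31 and HOXD4 0.20 ± 0.46.

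Averaged over both sexes, limma called 0 of the 12 and 0% of all tested after adjustment, and 0 of the 12 at an unadjusted p under 0.05, against 4.38% of all. HOXC4 came closest, with a log2 change of -0.48 ± 0.24 (limma unadjusted p = 0.0566, adjusted p = 0.984). Its change was negative in both sexes and lay between -0.58 and -0.32 when any 1 sample was left out. HOXB2 had -0.39 ± 0.30, but 0.17 without the divergent samples. HOXD4 had 0.26 ± 0.32, HOXD1 0.19 ± 0.21 and HOXC11 -0.11 ± 0.19.

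The most variable members gave the least precise age effects. HOXC6 had a log2 change of -0.27 ± 0.69 in males and -0.01 ± 0.72 in females, and the third HOXB7 probe set had 0.20 ± 0.56 and 0.03 ± 0.59 (SE). Standard errors over the 12 probe sets were 0.26 to 0.69 in males and 0.27 to 0.72 in females. In simulated data with independent noise, log2 changes of 1, 2, 3 and 4 were planted together, in 50 probe sets each. These were drawn at random from all 11108 tested, each with its own spread. A log2 change of 1 in males was called for 46% of changed probe sets and a change of 2 for 88%. Changes below 1 were thus mostly not detectable with this number of samples. So many planted changes make the adjusted threshold easier to pass than in the real males, where 2 probe sets passed. The HOX probe sets also had a larger median residual SD (0.762, against 0.460 for all tested). For both reasons these rates may be too high for them.

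As a list, the 12 had a median log2 change of -0.08 in males (5 higher, 7 lower), 0.01 in females (6 higher, 6 lower) and -0.09 over both sexes (4 higher, 8 lower). Medians over all 11108 probe sets were -0.02, -0.03 and -0.02. Without the divergent samples the HOX medians were 0.13, 0.09 and 0.11, so the sign of the list changed in males and over both sexes.

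The age effects of the sexes were compared as an interaction. Limma called 0 of the 12 and 0% of all tested, and at an unadjusted p under 0.05 it was 0 of the 12 and 1.94% of all. HOXB2 had the smallest p, with an age effect higher in males by 0.73 ± 0.61 (limma unadjusted p = 0.243, adjusted p = 1). The first HOXB7 probe set had -0.42 ± 0.69, HOXB6 -0.36 ± 0.69, the second HOXB5 probe set 0.23 ± 0.39 and HOXC4 0.22 ± 0.48.

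Without the brightness filter, all 31 HOX probe sets entered the fit, and none passed limma's test after adjustment. At an unadjusted p under 0.05 the count was 1 of 31 in males (HOXB9), against 3.93% of all 22215, and 4 of 31 in females (HOXC5, HOXC10, HOXD9 and HOXD13), against 4.01%. Over both sexes it was 1 of 31 (HOXD9), against 5.08%, and in the interaction 1 of 31 (HOXC5), against 2.88%. Of these probe sets, that of HOXC5 alone exceeded background in any sample.

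**Figure D5:**
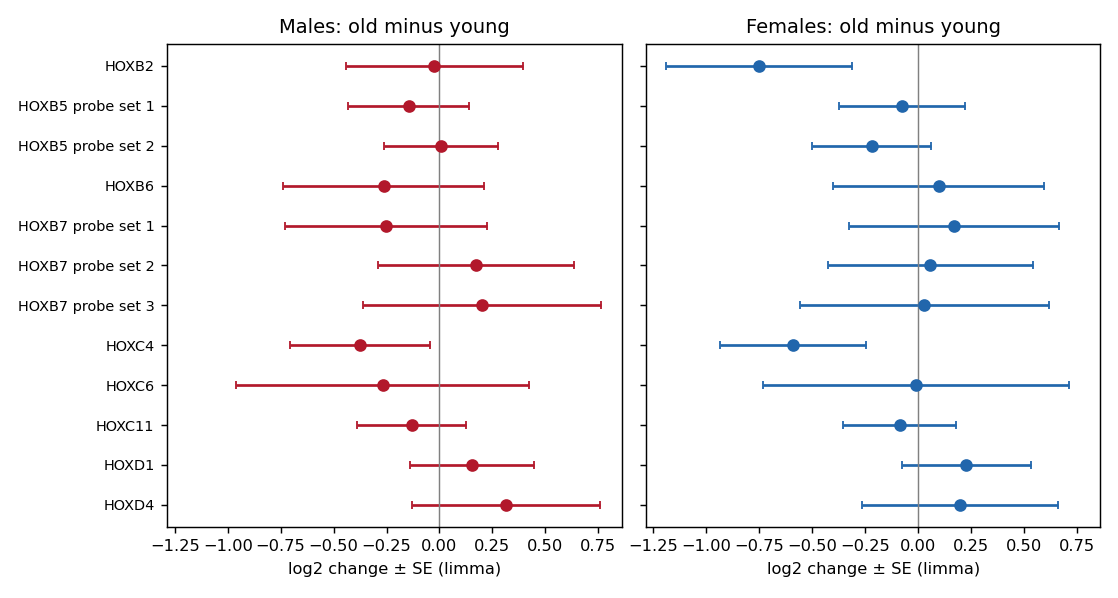
Log2 change with its SE from limma, old minus young, of the 12 tested HOX probe sets in males (left) and females (right). HOXC4 lies left of 0 in both sexes, at -0.37 and -0.59, HOXB2 reaches -0.75 in females, and no change passed the test.

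Partners and regulators of the HOX genes were read from lists of TALE cofactors, Polycomb, trithorax, and retinoic acid and CDX genes, and limma called 0 of them in any of the 4 comparisons. The TALE list had 10 tested probe sets of 5 genes, with a median log2 change of -0.15 in males (1 higher, 9 lower), close to 0 in females (5 higher, 5 lower) and -0.09 over both sexes. Some of these probe sets read the same gene, so their signs are not separate observations and carry no test. Of all tested probe sets, 47.6% were higher in old males. MEIS1, which loads HOX proteins on DNA with PBX, had -0.22 ± 0.16 over both sexes, and PKNOX2 had -0.22 ± 0.14 and -0.24 ± 0.19 on its probe sets.

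Polycomb genes had 24 tested probe sets of 13 genes and a median of -0.03 over both sexes. CBX6, a chromodomain subunit, had -0.37 ± 0.13 (limma unadjusted p = 0.00772, adjusted p = 0.984). PCGF2, a subunit of the ubiquitin ligase complex, had -0.34 ± 0.19, and SUZ12, a subunit of the methyltransferase complex, had 0.18 ± 0.12. Trithorax genes had 17 probe sets of 8 genes and a median of -0.03, with MEN1, a partner of the MLL methyltransferases, at 0.25 ± 0.14, the demethylase KDM6A at -0.21 ± 0.15 and the methyltransferase SETD1A at -0.21 ± 0.16. Retinoic acid and CDX genes had 12 probe sets of 8 genes and a median of 0.09. RARA, a retinoic acid receptor, had 0.33 ± 0.15 on the first and -0.57 ± 0.31 on the second of its probe sets named here, so they disagreed in sign, and RXRB, a partner receptor, had 0.14 ± 0.16.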

How the data were processed

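The deposited values were linear intensities of 22277 probe sets, brought by the authors to a common level on each array, as the values themselves show (array medians 144.2 to 264.1); the sources used here do not name the method by which probes were summarised. After removal of 62 control probe sets, log2(intensity + 16) of the deposited intensities was quantile normalised. Probe sets with a mean at or above the median were tested (11108). Near-identical arrays were old females 1 and 4, young males 3 and 4, and young females 3 and 4 (correlation of deviations at least 0.792, against at most 0.571 in the other pairs of 276). Group means were modelled with limma 3.58.1 in R 4.3.3 (trended eBayes, Benjamini-Hochberg, threshold 0.05) to all 21 samples. The number of arrays limits the precision.

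Symbols were those of GEO's platform annotation (19064 probe sets with 1 symbol, 1043 with several, 2108 unnamed here). Groups and replicate numbers came from the sample titles. The members and lists were chosen with earlier results of these data known. Named with values were members above background in at least 10% of samples, per contrast the 5 with the smallest p, the 5 largest and 5 smallest SDs, and 3 probe sets per cofactor list. The limit for divergent arrays, a median correlation of 0.85, and the correlations (100000 permutations) were set after the values were seen. The model, tested on simulated data of 11108 probe sets, made 6 false calls. Alternatives covered the pseudocount, normalisation, filter, background limit, arrays and samples left out, array weights and a replicate block.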

Additional observations from a re-analysis of the deposited data

Results flagged for a closer look

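Within groups, 7 HOX values stood far from the other samples of their group by Dixon's criterion for a single outlier, among 60 groups of values examined (15 probe sets in 4 groups). Dixon's limit flags about 1 in 20 such groups if values are independent and normally distributed. The share flagged over all probe sets is not given here. Old male 2 and young female 6 were each flagged on more than 1 gene, so the count is not read as a trait of HOX genes. Old male 2, a divergent sample, was lowest for HOXB6 at 5.34 log2 units, with the next old male at 8.30, and lowest for HOXB2 at 7.63, with the next at 8.88. Old female 2, also divergent, was lowest for HOXB3 at 5.56, with the next old female at 7.53.

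The other 4 lay in samples that were not divergent. Young male 6 was lowest for HOXB2 at 7.31, with the next young male at 9.13. Young female 6 was highest for the second HOXB7 probe set at 9.45, with the next at 7.87, and lowest for HOXC11 at 7.93, with the next at 8.63. Young female 5 was lowest for HOXD1 at 7.49, with the next young female at 8.12. Young male 6 and young female 6 are among the 4 samples with high HOXB7 and HOXC6.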

How the results depend on the processing

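The count of 0 HOX calls by limma held in males, females, over both sexes and in the interaction under 11 alternatives and with each of 21 samples left out. Over all probe sets, the alternatives gave 0 calls in females and in the interaction and 0 or 1 over both sexes. In males they gave 0 to 3, apart from array weights. With so few calls over all probe sets, the HOX count of 0 is not read as a trait of HOX genes. HOX probe sets above background in at least 90% of samples were 1 in the main setting, 3 without the divergent arrays, 5 with the 90th percentile as the limit, 0 with the 99th, and 5 with the median of all probe sets as the limit; with 1 sample left out the count was 1. The median residual SD was 0.762, 0.472 without the divergent arrays, and 0.551 to 0.784 with 1 sample left out. With 1 sample left out, the median log2 change of the HOX list ran from -0.18 to 0.18 in males, -0.21 to 0.26 in females and -0.12 to 0.03 over both sexes. Of 48 changes (12 probe sets in 4 contrasts), 28 changed sign under some alternative and 34 with some sample left out, none of them called; HOXC4 stayed negative in males, females and over both sexes throughout. The r of the second HOXB7 probe set and HOXC6 within 11 samples was 0.682 to 0.820 over 6 alternatives and 0.704 to 0.831 with 1 sample left out. Over all probe sets, array weights gave 25 calls in males against 2, and 0 HOX calls. With the replicate number as a block there were 0 HOX calls and HOX medians of -0.07, 0.01 and -0.11 in males, females and over both sexes; 30 same-numbered pairs of samples correlated at -0.42 to 0.51 (median 0.06, against -0.006 for other pairs), and 9 of 21 samples correlated best with their own number. How many samples would correlate best with their own number by chance is not given here. The labels do not say that a number marks shared material and not every such pair correlated above 0.1, so the numbers were not taken as pairs. A batch shared by part of the same-numbered samples was not tested, and the 0.1 rule cannot exclude it.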

Other observations

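HOXC5 was chosen after its values were seen, from the fit without the brightness filter, in which no HOX probe set passed after adjustment. It averaged 6.77 ± 0.94 in the 5 old females and 7.87 ± 0.42 in the 5 young females (SD), a log2 change of -1.11 ± 0.48 (SE; limma unadjusted p = 0.0308, adjusted p = 0.999). It was above background in none of the divergent samples, 2 of which are old females and 1 a young female. In old males HOXC5 averaged 7.71 ± 0.40 (n = 6) and in young males 7.13 ± 1.19 (n = 5), a change of 0.58 ± 0.46, and the difference of its age effects, males minus females, was 1.69 ± 0.67 (limma unadjusted p = 0.0187, adjusted p = 1). Without the divergent samples HOXC5 averaged 7.33 in 3 old females and 8.01 in 4 young females, a change of -0.67 ± 0.52 (limma unadjusted p = 0.212, adjusted p = 0.925). It then averaged 7.62 in 4 old males and 7.41 in 4 young males, a change of 0.21 ± 0.48, and the difference of age effects was 0.89 ± 0.71 (limma unadjusted p = 0.228, adjusted p = 1). All 3 values thus shrank by over 1.5 times without the divergent samples, a comparison added after the data were seen. The other 4 probe sets with an unadjusted limma p under 0.05 in 1 sex were those of HOXB9 (higher mean in old males), HOXC10 (lower mean in old females), and HOXD9 and HOXD13 (higher means in old females), all at background in each sample.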
